A study of Mus musculus with 40 samples.

Results

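The comparison described here is mouse duodenum after 28 days of captan in the diet at 12000 ppm against duodenum of control mice. Samples were chosen by their labelled treatment, which gave 7 captan samples and 5 controls, 12 of the 40 samples in the series. All 40 came from male wildtype B6C3F1 mice and were measured in fixed, paraffin-embedded duodenum scraped from mounted sections, and the sources used here do not give the animals' age. The other groups, of 7 samples each, received captan at 6000 ppm in the diet, folpet at 6000 or 16000 ppm in the diet, or hexavalent chromium at 180 ppm in drinking water. Of these only the captan 6000 ppm group is set beside the comparison, as the lower dose of the same compound. The controls carry no treatment other than the label control, and the labels do not tie samples to animals. The p-values therefore rest on sample-to-sample spread, which may be technical.

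TempO-Seq measures chosen transcripts: detector oligos that sit side by side on an RNA are ligated, amplified and sequenced. The table holds 3045 probes for 2756 gene symbols, so a gene that the panel does not target has no value. Levels are given as CPM, a probe's count scaled to its sample's depth after TMM normalization (trimmed mean of M values). They compare samples for a probe, not genes with each other. Tests used edgeR's quasi-likelihood model, a probe was called where its p, adjusted by the Benjamini-Hochberg method over 2541 tested probes, was under 0.05, and "rose" and "fell" are used only for called probes.

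Captan is a fungicide that reacts with thiols such as glutathione. The transcription factor NRF2, encoded by Nfe2l2, is held at a low level by KEAP1, whose cysteines react with electrophiles. When released, NRF2 binds antioxidant response elements and turns on genes for glutathione synthesis, glutathione transferases, quinone reduction and NADPH supply. In the duodenum, enterocytes of the villi absorb nutrients and carry much of the gut's drug-metabolising capacity, and crypts supply new cells.

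Total counts were between 2121824 and 6220801 per control sample and between 3168180 and 6109418 per captan 12000 ppm sample. The samples stood apart in their content of pancreatic acinar transcripts, the digestive enzymes made next to the duodenum in the pancreas. Counts on the 19 acinar genes of the panel took 21.2%, 39.2%, 41.3%, 65.5% and 77.6% of the 5 controls, and from 1.33% to 54.2% of the 7 captan samples with a median of 2.31%. The mean share was 37.2 percentage points lower under captan (exact two-sided permutation test, p = 0.0177, where 0.00253 is the smallest p that 7 against 5 samples allow). Captan replicate 7, at 54.2%, lay inside the control range. None of the 19 genes was at 0 in every sample of a group. Control replicate 5 had the highest share, the lowest total count and the fewest probes above 0, 1460 against 1908 to 2322 in the other controls. In bulk tissue, fewer cells of a type and less RNA per cell cannot be told apart. Because the share moved with the treatment, counts are also given without the 3 samples that exceeded 50% (control replicates 4 and 5, captan replicate 7) and with the share as a covariate.

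Against control, 118 of 2541 probes were called higher (4.64%) and 39 lower (1.53%). At unadjusted p under 0.05 there were 527 probes (20.7%), and the median log2 fold change over all tested probes was 0.004. More than 2-fold changes made up 47 of the 118 rises and 20 of the 39 falls. Every captan sample lay above every control for 42 probes (1.65%), 36 of them called, and below every control for 13 probes (0.512%), 6 of them called. Rises outnumbered falls, and 61 of the 115 genes that rose were on at least 1 of the gene lists. The lists were chosen with earlier results of these data known, and the share of all tested genes on them was not counted. The 61 therefore cannot show whether rises were concentrated in the lists, and this was not tested. With library totals alone in place of TMM, 75 probes were called higher and 4 lower, and the median over all probes moved up by 0.44 on the log2 scale. Without the 3 samples over 50% acinar counts 62 were called higher and 28 lower, and with the acinar share as a covariate 57 and 26.

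**Figure D1:**
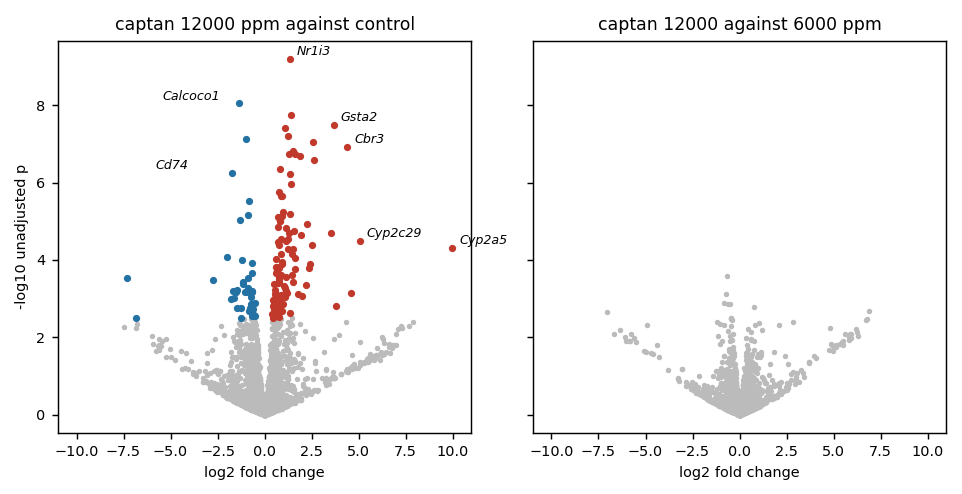
Log2 fold change (x axis) against -log10 of the unadjusted p (y axis) for 2541 probes, captan 12000 ppm against control on the left and against captan 6000 ppm on the right. Coloured points were called higher (118, red) or lower (39, blue) on the left, and no point was called on the right.

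The response was uneven among the 7 captan samples. Captan replicates 3, 4, 5 and 7 lay above every control for 116, 113, 110 and 106 of the 118 called higher probes. Captan replicates 1, 2 and 6 did so for 79, 73 and 80 of them. Those 3 samples still lay above the control mean for 111, 105 and 107 of the 118. These probes were picked with the same samples, so the counts describe the spread inside the group and test nothing. Over all 2541 probes, the share above every control was between 14.6% and 17.3% in each of the 7 captan samples.

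Of 48 tested genes on the NRF2 and glutathione list, 24 rose and none fell, against 4.64% and 1.53% of all probes, and the list's median log2 fold change was 1.04. Glutathione transferases, which join glutathione to electrophiles, had 6 of 9 members called. Gsta2 was 388, 104, 188, 243 and 277 CPM in the 5 controls and ranged from 598 to 5249.9 CPM with a median of 3821 in the captan samples, so the groups did not overlap. Its log2 fold change was 3.67 ± 0.52 (SE), a 12.7-fold rise with an adjusted p of 1.93e-05. Gsta1 and Gm3776, a near copy of it, rose by log2 fold changes of 2.58 and 2.65, again without overlap. Probes for Gsta1, Gsta2 and Gm3776 may detect each other's RNA, so these are uncertain as single genes. Gsta3, low in controls at 10.8, 0, 0, 3.77 and 0 CPM, ranged from 6.99 to 80.0 CPM with a median of 52.8 and rose by 3.82 ± 1.12 (SE) on the log2 scale with an adjusted p of 0.0304. Gstm3 (1.78) and Gstp1 (0.64) completed the 6, while Gstm2 at 1.17 missed the threshold with an adjusted p of 0.0860.

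Genes that make and recycle glutathione had 3 of 5 called. Slc7a11, the cystine importer that feeds glutathione synthesis, was 5.20, 25.3, 7.39, 16.8 and 27.0 CPM in controls. In captan samples it was 7.27, 7.23, 657, 276, 503, 53.2 and 1142 CPM. Replicates 1 and 2 were thus at control level while the other 5 exceeded every control, and the fitted log2 fold change was 4.60 ± 1.24 (SE) with an adjusted p of 0.0191. Gclc, the catalytic subunit of the enzyme that limits glutathione synthesis, rose by 2.19 ± 0.58 (SE) on the log2 scale from a low level (56.1 ± 26.4 CPM (SD, n = 7) against 12 ± 11.9 CPM (SD, n = 5)), with an adjusted p of 0.0139. Its partner subunit Gclm was 0.70 and not called (adjusted p = 0.0863). Gsr, which regenerates reduced glutathione, rose by 1.55 and did not overlap between groups. Without the samples over 50% acinar counts, Slc7a11 was 4.34 (adjusted p = 0.0996), Gclc 1.52 (0.171) and Gsr 1.32 (0.0607), none of them called.

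Enzymes that reduce quinones and carbonyls or open epoxides had 5 of 9 called. Cbr3, a carbonyl reductase, was 105, 67.2, 123, 192 and 68.5 CPM in controls and ranged from 154 to 4084 CPM with a median of 3131. Captan replicate 2, at 154 CPM, was the 1 captan sample below the highest control. The log2 fold change was 4.40 ± 0.66 (SE), a 21.1-fold rise (adjusted p = 3.30e-05). Nqo1, the NAD(P)H quinone reductase often used as a readout of NRF2, was 173, 103, 109.6, 225 and 91.0 CPM in controls and ranged from 148 to 1093 CPM with a median of 919.8. It rose by 2.23 ± 0.44 (SE) on the log2 scale (adjusted p = 0.000944), with captan replicates 1 and 2 at 222 and 148 CPM, inside the control range. Ephx1, the microsomal epoxide hydrolase, rose by 2.55, Aldh1a1 by 1.35 and Ephx2 by 0.64. The carbonyl reductase Cbr1, at 1.10, was not called (adjusted p = 0.112).

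Of 4 genes for NADPH supply and sugar nucleotide or pentose routes, 3 rose. Ugdh, which makes the UDP-glucuronate used in glucuronidation, rose by 1.89 ± 0.30 (SE), Me1, the cytosolic malic enzyme, by 1.63 ± 0.26 (SE), and Taldo1, transaldolase, by 0.90 ± 0.18 (SE) on the log2 scale. G6pdx was 0.39 and not called. Among 12 thioredoxin and peroxide genes 5 rose: Srxn1, sulfiredoxin, by 1.44, Cat, catalase, by 1.08, Txnrd1, thioredoxin reductase, by 1.07, Prdx1 by 0.70 and Sod1 by 0.57. Catalase did not overlap, at 1199, 1029, 774, 959 and 564 CPM in controls and from 1428 to 2402 CPM with a median of 1897 under captan. The median log2 fold change was 0.63 over these 12 genes and 1.78 over the 9 transferases.

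Of 5 regulators on the list, Maff, a small MAF protein that pairs with NRF2, rose by 1.35 ± 0.27 (SE) without overlap and Osgin1, a stress-responsive growth inhibitor, by 1.28 ± 0.27 (SE). Nfe2l2 itself was 231 ± 72.6 CPM (SD, n = 7) against 141 ± 71.3 CPM (SD, n = 5), a log2 fold change of 0.70 that was not called (adjusted p = 0.187). Keap1 was 0.40 (adjusted p = 0.136). None of the 4 heme, iron and metal genes was called. Hmox1, heme oxygenase 1, was at 0 in 4 of 5 controls and ranged from 0 to 37.6 CPM with a median of 15.7, a log2 fold change of 3.28 ± 2.01 (SE) with an adjusted p of 0.382. The count of called list members was 24 with all samples, 13 without the 3 samples over 50% acinar counts, 16 with the acinar share as a covariate and between 19 and 28 with any 1 sample of either group left out. With only the 12 compared samples in the fit it was 9, and Slc7a11, Gclc, Nqo1 and Ephx1 were not called.

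**Figure D2:**
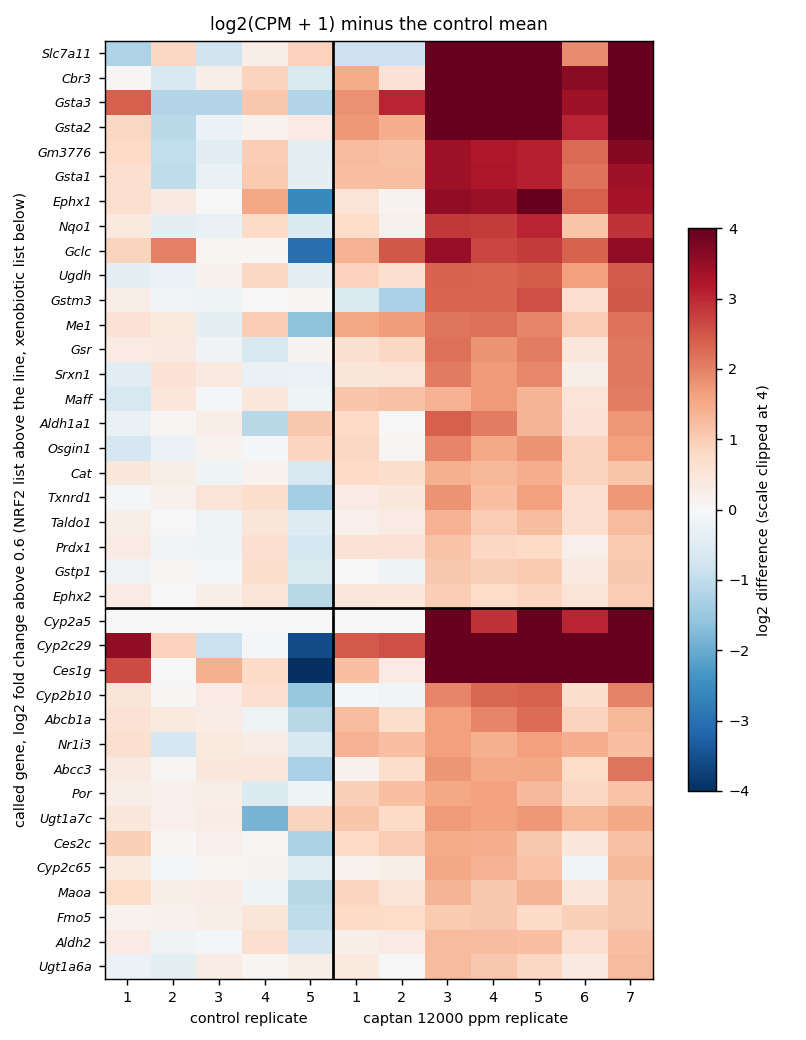
Difference of log2(CPM + 1) from the control mean, clipped at 4, for each called gene with a log2 fold change above 0.6 on the NRF2 list (23, upper block) and on the xenobiotic list (15, lower block) in 5 control and 7 captan 12000 ppm samples. Captan replicates 3, 4, 5 and 7 are darkest, and replicates 1 and 2 are palest for Slc7a11, Cbr3, Nqo1 and Ephx1.

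Since 24 genes of the NRF2 list rose, the list's promoters were searched for the letters TGACNNNGC, the core of the antioxidant response element, on both strands from 250 bases before to 50 after the start site (RefSeq, build GRCm38.p6). Of the 24 called genes 21 had a promoter in the table and 8 of these held the letters (38.1%), against 6 of 22 list genes that were not called (27.3%), 284 of 1743 tested genes (16.3%) and 12.4% of all promoter entries. These shares are a description, and a match is not a shown binding site. Windows are printed for 5 of the 8 genes, all of them upstream of the start site. The match is in capitals with 30 bases on each side, 5' to 3' along the gene. The letters of the AP-1 motif, TGACTCA, overlap the motif searched and lie on the opposite strand inside the Prdx1 match.
Gsta3: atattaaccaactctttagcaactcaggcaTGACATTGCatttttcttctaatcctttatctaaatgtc
Maff: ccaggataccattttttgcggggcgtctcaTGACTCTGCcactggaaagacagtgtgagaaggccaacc
Prdx1: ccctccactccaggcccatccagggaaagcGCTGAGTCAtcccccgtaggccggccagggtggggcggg
Txnrd1: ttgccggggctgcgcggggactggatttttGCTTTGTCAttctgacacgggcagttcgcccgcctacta
Sod1: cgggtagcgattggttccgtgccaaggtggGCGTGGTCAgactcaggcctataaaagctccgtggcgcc
The windows are chr1:21240434-21240502 for Gsta3 (plus strand), chr15:79346479-79346547 for Maff (plus strand), chr4:116685436-116685504 for Prdx1 (plus strand), chr10:82859084-82859152 for Txnrd1 (plus strand) and chr16:90220676-90220744 for Sod1 (plus strand). The matches begin 121, 112, 133, 92 and 56 bases before the start site, in that order, as TGACNNNGC in Gsta3 and Maff and as its reverse complement in Prdx1, Txnrd1 and Sod1. Ugdh, Me1 and Srxn1 also held matches, which are not printed. Those of Ugdh and Me1 also began before the start site, and the Me1 match held the AP-1 letters. The 5 genes printed rose by log2 fold changes of 3.82, 1.35, 0.70, 1.07 and 0.57.

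On the xenobiotic metabolism list, 16 of 52 tested members were called higher and none lower, against 4.64% and 1.53% of all probes, with a list median of 0.75. The constitutive androstane receptor Nr1i3, a nuclear receptor that responds to foreign compounds, had the smallest p of all probes. It was 447, 175, 375, 349 and 189 CPM in controls and ranged from 656 to 903 CPM with a median of 767, without overlap, for a log2 fold change of 1.33 ± 0.17 (SE) and an adjusted p of 1.58e-06. Its second probe was called too. The pregnane X receptor Nr1i2 was 0.09 (adjusted p = 0.873) and the aryl hydrocarbon receptor Ahr 0.71 (0.220), neither called.

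Of 15 cytochrome P450 and reductase genes 5 rose. Cyp2c29 was 140.1, 21.9, 5.64, 10.4 and 0 CPM in controls and ranged from 64.7 to 2812 CPM with a median of 1052, a log2 fold change of 5.06 ± 1.06 (SE) (adjusted p = 0.00199), with control replicate 1 above captan replicates 1 and 2. Cyp2b10, a textbook target of NR1I3, was 3641, 2669, 3256, 4150.4 and 904 CPM in controls and ranged from 2432 to 13419 CPM with a median of 10019. It rose by 1.45 ± 0.35 (SE) (adjusted p = 0.00895), and its call was lost with the acinar covariate (1.29, adjusted p = 0.0677). Cyp2a5 was at 0 in all 5 controls and in captan replicates 1 and 2, and had 36.0, 6.34, 85.5, 7.23 and 47.8 CPM in the others. It was called (adjusted p = 0.00271), and no fold is given against a group at 0. Por, the reductase that passes electrons to P450 enzymes, rose by 1.22 ± 0.19 (SE) without overlap, and Cyp2c65 by 0.91.

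Cyp1a1, the main target of the aryl hydrocarbon receptor, showed 1 very high sample: captan replicate 7 had 2236 CPM while the other 6 ranged from 0 to 151 CPM and controls from 0 to 34 CPM. The log2 fold change of 5.06 ± 1.93 (SE) was not called (adjusted p = 0.120). Cyp3a11, a target of the pregnane X receptor, was 342 ± 222 CPM (SD, n = 7) against 404 ± 278 CPM (SD, n = 5) and was not called at -0.24, a sign that flipped with library totals (0.22).

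Of 11 other oxidases, hydrolases and reductases 6 rose, of 12 conjugating transferases 2 and of 8 transporters 2, and none fell. Ces1g, a carboxylesterase, was 165, 26.4, 72.5, 45.8 and 0 CPM in controls and ranged from 33.7 to 1409 CPM with a median of 849, a rise of 3.52 ± 0.71 (SE) (adjusted p = 0.00143) with captan replicates 1 and 2 inside the control range. Smaller rises were seen for Ces2c (0.94), Maoa (0.87), Fmo5 (0.85) and Aldh2 (0.85). The glucuronosyltransferases Ugt1a7c and Ugt1a6a rose by 1.21 and 0.79, and share sequence that a probe may not separate. The export pumps Abcb1a (P-glycoprotein) and Abcc3 rose by 1.40 and 1.23. Alas1, the first enzyme of heme synthesis, was outside the list and rose by 1.13 ± 0.23 (SE), but its second probe was not called (adjusted p = 0.694). Of the 52 members, 11 were called higher without the samples over 50% acinar counts, 9 with the acinar share as a covariate and 10 with library totals. With only the 12 compared samples in the fit 3 were, and Cyp2c29, Cyp2a5, Cyp2b10 and Ces1g were not called.

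Of 26 fatty acid oxidation genes 6 rose and none fell, against 4.64% and 1.53% of all probes, with a list median of 0.35. With library totals 3 were called higher, and with the acinar covariate 3 higher and 1 lower. With only the 12 compared samples in the fit 1 was called higher. Aldh3a2, which oxidises fatty aldehydes, was 1244, 1122, 1259, 1446 and 1096 CPM in controls and ranged from 1482 to 2994 CPM with a median of 2345, without overlap (log2 fold change 0.84 ± 0.14 (SE), adjusted p = 7.50e-05), while its second probe was not called. Creb3l3, a lipid-responsive transcription factor of gut and liver, rose by 0.81 ± 0.16 (SE) without overlap. Eci1 rose by 0.79. Ppara was 0.04 and not called.

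Enterocyte markers had 4 of 7 called higher and none lower, against 4.64% and 1.53% of all probes. Among them were the fatty acid binding proteins Fabp2 (0.78 ± 0.20 (SE)) and Fabp1 (0.63 ± 0.20 (SE)), which are also on the fatty acid list, and apolipoprotein Apoa1 (0.95 ± 0.23 (SE)). Of the 7, 5 had a log2 fold change above 0, and 1 was lower at an unadjusted p under 0.05 without being called. Cyp3a11, also on this list, was -0.24 (adjusted p = 0.825). The summed level of the 7 markers ranged from 17723 to 60977 CPM in controls and from 62003 to 88517 CPM under captan, and none of the 7 was at 0. With the acinar covariate Fabp2 was 0.59 (adjusted p = 0.147) and Fabp1 0.36 (0.423). Klf4, a regulator of epithelial differentiation, was 119, 240.2, 167, 100.3 and 37.8 CPM in controls and ranged from 305 to 477 CPM with a median of 403, without overlap (log2 fold change 1.53 ± 0.25 (SE), adjusted p = 3.91e-05). Without the samples over 50% acinar counts Klf4 remained called at 1.20 (adjusted p = 0.00163), and 1 of the 7 enterocyte markers was called higher without them.

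**Figure D3:**
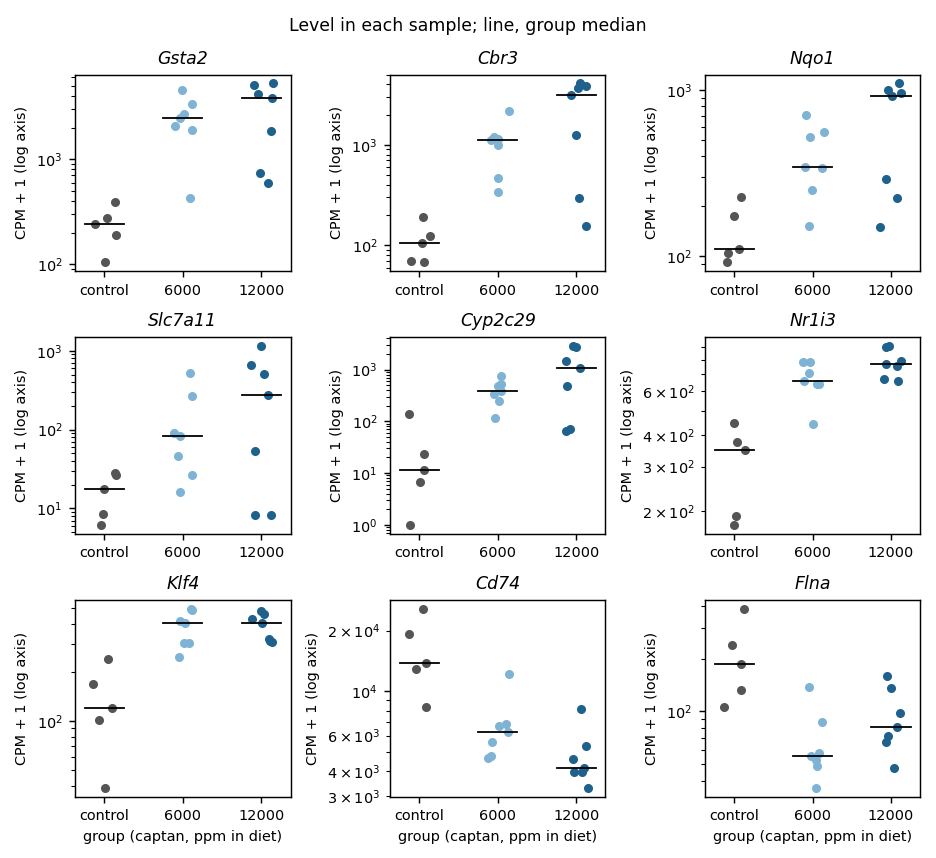
CPM + 1 on a log axis in each control, captan 6000 ppm and captan 12000 ppm sample for 9 genes, with a line at the group median. For Gsta2, Nr1i3, Klf4 and Cd74 the 12000 ppm samples do not overlap with controls, and for Cbr3, Nqo1, Slc7a11, Cyp2c29 and Flna they do.

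Among 26 genes of hypoxia and glycolysis 7 rose and none fell (median 0.58), against 4.64% and 1.53% of all probes. Bnip3, a mitophagy gene induced by low oxygen, was 17.5, 12.9, 15.6, 49.6 and 0 CPM in controls and ranged from 36.2 to 115 CPM with a median of 65.6, a rise of 1.94 ± 0.41 (SE) (adjusted p = 0.00151). Pfkl, the liver form of phosphofructokinase, did not overlap between 18.3, 12.4, 38.5, 38.3 and 27.0 CPM in controls and from 61.2 to 83.8 CPM with a median of 78.7 under captan (log2 fold change 1.50 ± 0.34 (SE)). The glycolytic genes Aldoa (0.89), Tpi1 (0.66) and Gapdh (0.62), the lactate exporter Slc16a3 (1.05) and carbonic anhydrase Car9 (0.85) made up the rest. Hif1a was 0.54 (adjusted p = 0.303) and Vegfa -0.28 (0.644), neither called. The glucose and lactate genes had 5 of 14 called and the hypoxia regulators and targets 2 of 12. With library totals, with the acinar covariate and without the samples over 50% acinar counts, 4 of the 26 were called higher in each fit, and with the covariate 1 was called lower. With only the 12 compared samples in the fit 1 was called higher. Slc16a3 was 0.86 (adjusted p = 0.147) with the covariate.

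Of 19 lipid and sterol synthesis genes 2 rose, among them Insig1, which holds back sterol synthesis when sterol is plentiful (0.67 ± 0.21 (SE)). Fatty acid synthase Fasn was -0.13 and Hmgcs1 0.80, neither called. Neither rise was called without control replicate 5 or without the samples over 50% acinar counts. The same held with library totals, with the acinar covariate and with only the 12 compared samples in the fit. Of 14 immediate early genes 4 rose and none fell, against the same shares of all probes. They were Klf4, Maff, the phosphatase Dusp6 (1.16 ± 0.29 (SE)) and Jun (0.87 ± 0.26 (SE)), while Fos was 0.57 (adjusted p = 0.141) and Atf3 1.13 (0.486). With the acinar covariate Dusp6 was 0.92 (adjusted p = 0.0895) and Jun 0.67 (0.264), and both also lost their call without the samples over 50% acinar counts (0.152 and 0.0718), which left 2 of the 4.

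Of 115 genes called higher, 54 were on none of the lists. Slc11a2, the iron importer of the duodenal brush border, was 695, 267, 919, 882 and 1089.9 CPM in controls and ranged from 886 to 5787 CPM with a median of 2643, a rise of 1.97 ± 0.54 (SE) (adjusted p = 0.0210), with captan replicate 6 alone inside the control range. Capg, an actin-capping protein, and Tubb2a, a beta tubulin, rose by 2.41 ± 0.56 (SE) and 2.39 ± 0.56 (SE), both without overlap. Pgrmc1, a heme-binding partner of P450 enzymes, rose by 1.43 ± 0.21 (SE), from 630.0, 453, 509, 599 and 383 CPM in controls to a range from 682 to 1899 CPM with a median of 1686. Hsd3b2, a steroid dehydrogenase, rose by 1.61, Pgm2 by 1.61, Cth, which makes cysteine from cystathionine, by 0.76, and the clock output gene Dbp by 1.14. Cps1, on the hepatocyte list and also made in gut epithelium, rose by 1.53 ± 0.40 (SE) without overlap, while Cyp7a1, Fgb, Fgg, Hp and Serpina3k of the same list were at 0 in every sample of both groups. With the acinar covariate Slc11a2 was 1.47 (adjusted p = 0.226), Capg 2.13 (0.0593), Cps1 1.21 (0.171) and Dbp 1.23 (0.0509), none of them called. Without the samples over 50% acinar counts Capg, Tubb2a, Hsd3b2 and Pgm2 were not called (adjusted p = 0.0537, 0.0840, 0.0756 and 0.0653).

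Of 39 genes that fell, 18 were on at least 1 list and 21 on none, again without a share of all tested genes to set beside them. With library totals alone 4 falls were called, those of Cd74, ERO1LB, Egf and Zg16, and no other fall named here kept its call under that scaling. Of 4 MHC class II genes tested, 2 fell and none rose, against 1.53% and 4.64% of all probes. The other 2 had log2 fold changes above 0, 1 of them at an unadjusted p under 0.05. Cd74, the invariant chain that guides class II molecules, was 12868, 25588, 13843, 19248 and 8371 CPM in controls and ranged from 3306 to 8147 CPM with a median of 4136, without overlap, a log2 fold change of -1.74 ± 0.29 (SE) (adjusted p = 8.86e-05). H2-Aa, a class II alpha chain, fell by 1.54 on the log2 scale, with captan replicate 2 at 493 CPM and the other 6 between 93.6 and 166 CPM. The summed level of the class II list, most of it from Cd74, ranged from 8992 to 27612 CPM in controls and from 4263 to 10151 CPM under captan. Cd74 kept its call without the samples over 50% acinar counts (-1.88) and with the acinar covariate (-1.71).

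Myeloid and mast cell genes had 2 of 13 called lower and none higher, against 1.53% and 4.64% of all probes. They were C1qc, a complement subunit made by macrophages (-0.69 ± 0.20 (SE), no overlap), and the Fc receptor Fcgr3 (-1.60 ± 0.45 (SE)). C1qa at -0.70 and C1qb at -0.56 missed the threshold (adjusted p = 0.0751 and 0.0672), and Cd68 was -0.03. The summed level of the 13 ranged from 957 to 2650 CPM in controls and from 995 to 1419 CPM under captan. The myeloid count was 0 with library totals, 1 with the acinar covariate, where C1qc had an adjusted p of 0.106, 4 without control replicate 5 or with limma-voom, and 5 with DESeq2. Without the samples over 50% acinar counts C1qc was not called (-0.80, adjusted p = 0.0524). Of 16 lymphocyte genes 1 fell and none rose, against 1.53% and 4.64% of all probes. It was Itgae, an integrin of intraepithelial lymphocytes (-0.88 ± 0.24 (SE)), though its second probe was not called (adjusted p = 0.0751). The summed level of the 16 ranged from 435 to 1258 CPM in controls and from 293 to 886 CPM under captan. With the acinar covariate Itgae was -0.90 (adjusted p = 0.0540).

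Of 22 fibroblast and stroma genes 3 fell and none rose, against 1.53% and 4.64% of all probes. The 3 were the collagen VI chain Col6a3 (-1.29 ± 0.26 (SE)), fibrillin Fbn1 (-1.21 ± 0.29 (SE)) and biglycan Bgn (-0.53 ± 0.16 (SE), a sign that flipped to 0.055 with library totals). Col6a3 was 70.9, 229.7, 163, 203 and 157 CPM in controls and ranged from 47.2 to 95.3 CPM with a median of 62.0, with control replicate 1 inside the captan range. The collagens Col1a1 (-0.15) and Col3a1 (0.25) were not called. Of 6 smooth muscle genes 2 fell and none rose, against the same shares of all probes. These were filamin Flna (-1.15 ± 0.30 (SE)) and the smooth muscle actin Acta2 (-0.67 ± 0.21 (SE), adjusted p = 0.0462). The summed level of the stroma list ranged from 1943 to 3042 CPM in controls and from 1480 to 2366 CPM under captan, and that of the smooth muscle list from 1666 to 3126 and from 1355 to 2352 CPM. No smooth muscle gene was called without the samples over 50% acinar counts, and with library totals neither list had a call.

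Growth factor and Wnt genes had 5 of 26 called lower and none higher, against 1.53% and 4.64% of all probes. Of the 26, 11 had a log2 fold change above 0. Among these Hgf lay higher in every captan sample than in every control without being called (2.67, adjusted p = 0.218). The receptors Igf1r (-1.13 ± 0.30 (SE), no overlap), Erbb2 (-0.86 ± 0.24 (SE)) and Erbb3 (-0.52 ± 0.17 (SE)) fell, and so did the Notch target Hes1 (-0.66 ± 0.18 (SE)). Egf, the growth factor made by Brunner glands, was at 0 in control replicates 1 and 2, had 14.8, 2.32 and 31.5 CPM in the other controls, and was at 0 in 6 of 7 captan samples, so its call rests on very low counts. With library totals 1 gene of the list was called lower, and with only the 12 compared samples in the fit none was. Igf1r was not called with the acinar covariate (-0.89, adjusted p = 0.179). Hes1 was not called without the samples over 50% acinar counts (-0.65, adjusted p = 0.0764). Of 21 alternative fits Igf1r kept its call in 17, Erbb2 in 16, Hes1 in 15 and Erbb3 in 9.

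Several of the larger falls were not called once the acinar share was a covariate. Zg16, a secretory granule protein on the goblet and acinar lists, was 28091, 28994, 15461, 51163 and 81095 CPM in controls and 44666 CPM in captan replicate 7 against 8427 to 10771 CPM in the other 6 captan samples. Its log2 fold change was -1.49 ± 0.44 (SE), and -0.11 with the acinar covariate (adjusted p = 0.918). The counts of Zg16 are part of the acinar share, so its value with the covariate was bound to shrink and shows nothing about its fall. ERO1LB, an oxidase of the secretory pathway, fell by 2.72 on the log2 scale, and was -0.94 with the covariate (adjusted p = 0.231). Glul, glutamine synthetase, was 219, 166, 192, 197 and 1234 CPM in controls, and its fall of 1.97 became -0.62 with the covariate (adjusted p = 0.511) and -0.95 without the samples over 50% (adjusted p = 0.220). Slc27a1, a fatty acid transport protein, went from -1.48 to -0.24 with the covariate (adjusted p = 0.900). Aldh7a1, at -1.66, changed sign with the covariate, to 0.07. The part of the acinar share in these falls was not tested beyond such fits.

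Calcoco1, a receptor of selective autophagy, fell from 361, 289, 307, 465 and 663 CPM in controls to a range from 87.5 to 259.8 CPM with a median of 165 (log2 fold change -1.37 ± 0.20 (SE), adjusted p = 1.13e-05). It kept its call with the covariate, at -0.99 (adjusted p = 0.00593), and lost it with library totals, at -0.72 (0.174). Ythdf1, a reader of methylated RNA, was 249, 257, 272, 264 and 244 CPM in controls and ranged from 119 to 139 CPM with a median of 130.5 under captan, without overlap (log2 fold change -1.01 ± 0.16 (SE), adjusted p = 2.74e-05), and was -0.57 with library totals (adjusted p = 0.364). St3gal2, a sialyltransferase, fell by 1.81 without overlap, Klhl24 by 0.90 and Spcs3, a signal peptidase subunit, by 0.83. Without the samples over 50% acinar counts St3gal2 and Klhl24 were not called (adjusted p = 0.0840 and 0.0524).

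**Figure D4:**
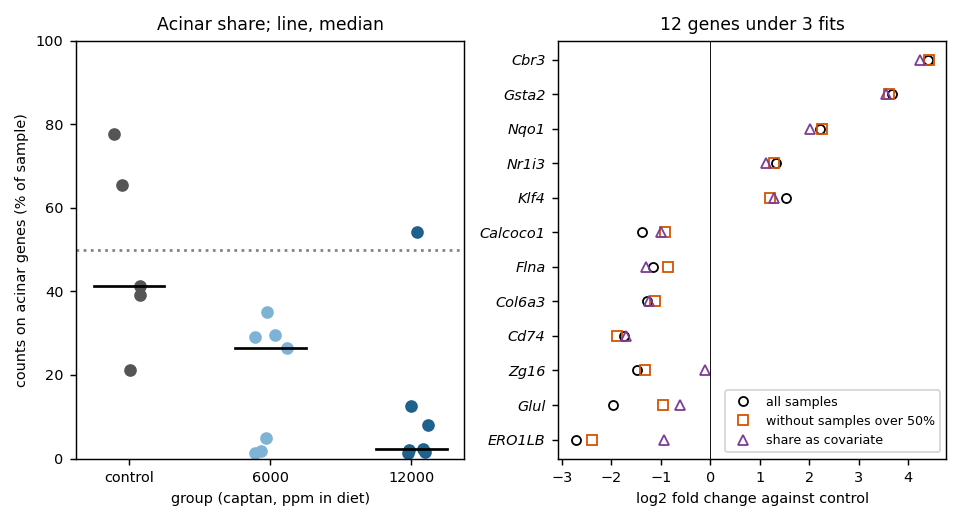
Left, percent of each sample's counts on 19 acinar genes, with group medians as lines and 50% dotted. Right, log2 fold change against control of 12 genes with all samples (circles), without the samples over 50% (squares) and with the share as a covariate (triangles): Cbr3 and Gsta2 stay near 4, while Zg16, Glul and ERO1LB move towards 0 with the covariate. Zg16 is itself among the 19 acinar genes that make up the share.

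Cell division and DNA damage genes were called at shares near or under those of all probes, 4.64% higher and 1.53% lower. Of 81 proliferation genes 1 fell, Ccnd2 (-0.75 ± 0.23 (SE)), whose second probe was not called, and none rose, with a median of -0.004. Mki67 was 28.2 ± 16.9 CPM (SD, n = 7) against 32.5 ± 23.6 CPM (SD, n = 5) (-0.22, adjusted p = 0.893), Ccnd1 -0.29 (0.721) and Myc -0.67 (0.586), and the signs of Mki67 and Ccnd1 flipped with library totals. Of 40 DNA damage and p53 genes only the cell cycle inhibitor Cdkn1b was called, lower by 0.68 on the log2 scale. Trp53 was 0.31 (adjusted p = 0.425), Cdkn1a 0.27 (0.443) and Mdm2 -0.38 (0.516), whose sign flipped with library totals (0.24).

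Of 39 heat shock and protein stress genes 1 rose and none fell, against 4.64% and 1.53% of all probes. That gene, the chaperone cofactor Dnajb6 (0.50), was not called with the acinar covariate (adjusted p = 0.0790). Hspa1b, an inducible heat shock protein, was 495 ± 285 CPM (SD, n = 7) against 143 ± 86.2 CPM (SD, n = 5) and not called (1.80 ± 0.77 (SE), adjusted p = 0.173). Ddit3, a marker of endoplasmic reticulum stress, was 0.74 (adjusted p = 0.334). None of 43 inflammation and interferon genes and none of 16 mitochondrial genes was called by edgeR, with 3 and 4 of them at an unadjusted p under 0.05. DESeq2 called 1 inflammation gene higher and 1 mitochondrial gene in each direction, and limma-voom called none on either list. Tnf was -0.73 (adjusted p = 0.846), and Il1b had no count in any of the 12 samples. The 6 endothelial and blood genes and the 6 adipocyte and nerve genes tested had no call by edgeR, DESeq2 or limma-voom, with 0 and 0 of them at an unadjusted p under 0.05.

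**Figure D5:**
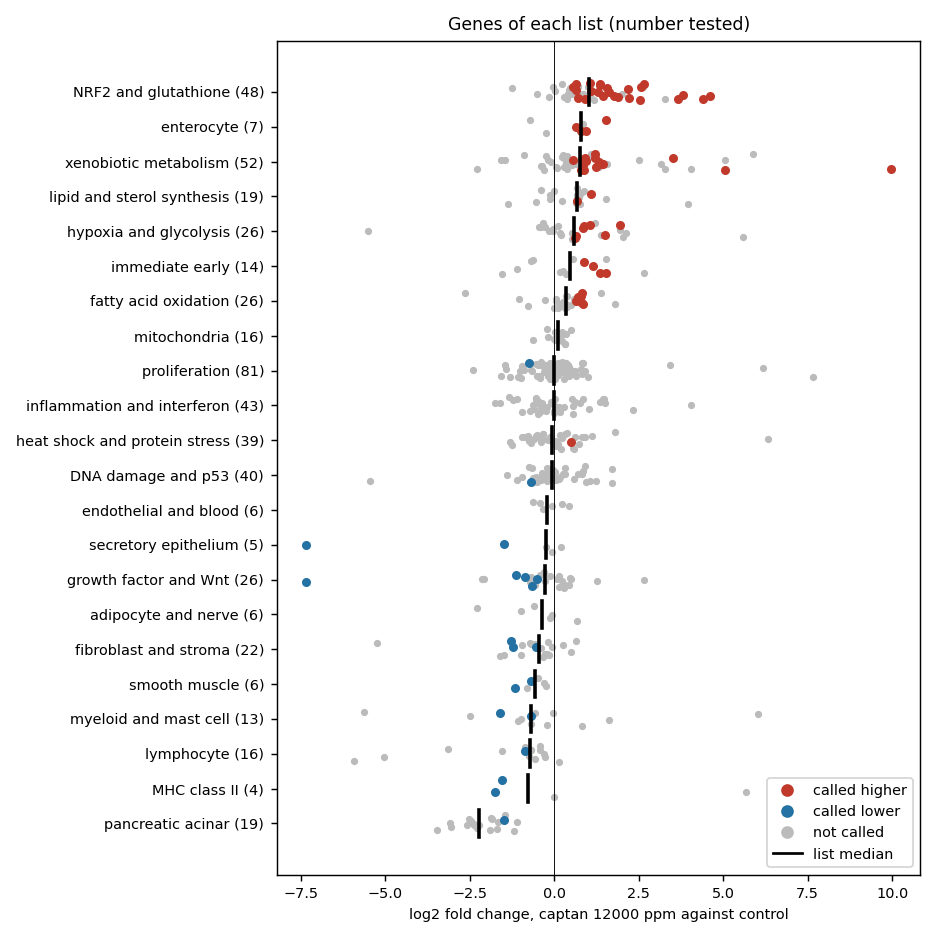
Log2 fold change, captan 12000 ppm against control, of every tested gene in 22 lists (number tested in brackets), with a bar at the list median. Red points rose (24 in the NRF2 list, 16 in the xenobiotic list), blue points fell, and grey points were not called.

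The 2 captan doses were compared directly, without the controls. At 12000 against 6000 ppm no probe of 2541 was called (0%), the smallest adjusted p was 0.555, and 148 probes (5.82%) had an unadjusted p under 0.05. DESeq2 and limma-voom called none either. No probe had every 12000 ppm sample above every 6000 ppm sample, and 1, Ppp1r13b, had every one below. Leading genes of the NRF2 and drug metabolism lists were described by their dose intervals. The log2 difference of Gsta2 was 0.30 (95% interval -0.52 to 1.12), that of Cbr3 1.15 (0.13 to 2.17), that of Nqo1 0.69 (-0.06 to 1.43) and that of Cyp2c29 1.60 (0.01 to 3.18). The absence of calls does not show that the 2 doses acted alike, since these intervals reach beyond 2-fold.

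Of the 6 genes with the smallest p in the dose step, 5 were lower at 12000 ppm. Klhl24 differed by -0.65 on the log2 scale (unadjusted p = 0.000265), St6galnac2, a sialyltransferase, by -0.71 (0.000776), Ppargc1a, a regulator of mitochondrial oxidation, by -0.84 (0.00126), Erbb3 by -0.52 (0.00137) and Calcoco1 by -0.62 (0.00141). Osgin1 differed by 0.79 (0.00161), with 6000 ppm samples from 206 to 488 CPM and 12000 ppm samples from 203 to 746 CPM. None of these passed after adjustment. Of 14 sterol synthesis genes 13 had a dose difference above 0, where 50.3% of all probes did, and none was called. The acinar share ranged from 1.22% to 35.0% at 6000 ppm with a median of 26.3%, and its part in the dose differences was not tested.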

How the data were processed

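The authors deposited whole-number counts per probe for 40 samples of mouse duodenum, and neither the values nor the header show a normalization. Per the submitters' processing notes, bcl2fastq 2.17.1.14, Bowtie and the mouse build mm9 were used, with no role named for each. Columns were matched to samples by title and groups were taken from the labelled treatment, and replicate numbers only name samples. Per the labels, no batch is recorded. Symbols were set in mouse case with RefSeq gene names, and 155 had no match. Of all deposited counts 28.5% were 0, and of those above 0 only 1.01% lay from 1 to 5, so low counts may have been removed. Total counts of 1763440 to 7904819 per sample limit the precision of low genes, and the labels name no molecular identifiers.

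In R 4.3.3 with edgeR 4.0.16, filterByExpr (minimum count 10, minimum total 15) kept 2541 probes. After TMM scaling, all 40 samples entered a quasi-likelihood fit with robust dispersions and a mean for each group (34 residual degrees of freedom). Two-sided p-values were adjusted by the Benjamini-Hochberg method over the 2541 probes of a contrast. SE was taken as the absolute log2 fold change over the root of the F statistic, an approximation on which the 95% intervals of dose differences rest. Alternatives used DESeq2 1.42.0, limma 3.58.1 (voom), other scalings, no filter, only the compared samples, the acinar share as a covariate, samples left out by that share, and each replicate left out. The code was checked on simulated counts. The 25 gene lists and the comparison were chosen with earlier results of these data known. Named genes were the 10 largest rises and falls among called probes of at least 10 mean CPM, up to 4 called members of each list in each direction, a set of 30 stress, receptor and cycle genes whatever their test showed, and further list members or genes chosen after their values were seen. Of that set Pcna did not pass the count filter and Lgr5 was not analysed here. For genes with 2 probes, values are from the probe with the higher total. Cross-detection between close relatives (Gsta, Cyp2, Ces, Ugt1a and trypsin genes) could not be checked, and such calls are uncertain as single genes. Some list members that the rule names are not reported here.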

Additional observations from a re-analysis of the deposited data

Results flagged for a closer look

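In 18 of 194 groups of values tested (9.28%), 1 sample lay far from the rest of its group by Dixon's criterion. Its rate of about 1 in 20 by chance holds for independent, normally distributed values. These groups came from the same 12 samples and some lay near 0, so the 9.28% cannot be judged against it. Control replicate 5, the shallowest control, was far below the others for Abcc3 (37.8 CPM), Cdkn1b (184.7 CPM), Ces2b (1358 CPM), Cyp2b10 (904 CPM), Dusp6 (52.2 CPM), Fabp2 (11243 CPM) and Fmo5 (222 CPM), and far above them for Glul (1234 CPM). It also had the highest acinar share, and the part of depth or acinar share in these values was not tested. Captan replicate 7 stood apart with an acinar share of 54.2% against a group median of 2.31%, and with it for Zg16 (44666 CPM) and ERO1LB (151 CPM). Its Egf value of 0.283 CPM was set apart only because the other 6 captan samples were at 0. Control replicate 2 had 0 CPM of Capg and 479 CPM of Itgae, and control replicate 4 had 32.2 CPM of Ugt1a7c. Among captan samples, replicate 4 was low for Ccnd2 (66.2 CPM), replicate 1 high for Fbn1 (108 CPM) and replicate 2 high for H2-Aa (493 CPM).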

How the results depend on the processing

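No paired analysis was possible because the labels give no replicate numbers. Apart from fits that left out 1 sample, the 118 probes higher or the 39 lower moved by over 1.5 times under 5 planned settings. With library totals alone they were 75 and 4, the median over all probes rising by 0.44 (log2), and the split of calls went from 75.2% to 94.9% higher. With only the 12 compared samples in the fit they were 24 and 5, with fewer residual degrees of freedom. With the acinar share as a covariate 57 probes were higher, without the samples over 50% acinar counts 62, and without control replicates 4 and 5, an alternative chosen after seeing the data, 69. DESeq2 called 103 lower. Leaving out 1 sample in turn gave 80 to 154 higher and 24 to 46 lower. There were 24 lower without captan replicate 3 and 25 without captan replicate 5, both also moves of over 1.5 times. Of the 157 called probes 155 remained called with DESeq2, 111 with limma-voom, 71 with the acinar covariate and 29 with only the compared samples. The cause of these moves was not tested. For the dose step, leaving out 1 sample gave 0 to 1 higher (1 without captan 6000 ppm replicate 4) and 0 to 1 lower (1 without captan 12000 ppm replicate 2 or 6), and all other settings 0. The acinar difference was between -44.3 and -30.1 points with 1 sample left out and -17.0 with the core enzymes only.

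Single genes changed sign as follows. With library totals Bgn was 0.055, Ccnd1 0.14, Cyp3a11 0.22, Mdm2 0.24 and Mki67 0.064. With limma-voom, which moved the median by 0.11, Mdm2 was 0.17 and Mki67 0.024. With the acinar covariate Aldh7a1 was 0.074 and Nr1i2 -0.032. Without the samples over 50% Mdm2 was 0.094 and Nr1i2 -0.14, and without control replicates 4 and 5 they were 0.10 and -0.17. With 1 sample left out, Cyp3a11 ranged from -0.58 to 0.27, Mdm2 from -0.55 to 0.20, Mki67 from -0.53 to 0.14 and Nr1i2 from -0.061 to 0.32. Of the 96 named genes that were called, 16 kept their call in all 21 alternatives: Aldh3a2, Cat, Cbr3, Cd74, Cth, Gm3776, Gsta1, Gsta2, Klf4, Maff, Nr1i3, Pfkl, Pgrmc1, Por, Ptger4 and Tsku.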

Other observations

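Further genes that rose were on no list and are given here after their values were seen, with no theme read from them. Their groups did not overlap for Bpnt1, a phosphatase that clears a by-product of sulfation (group means 3964 to 6558 CPM, log2 fold change 0.73 ± 0.15 (SE)), Arf1, a GTPase of vesicle transport (1359 to 2280.0 CPM, 0.75 ± 0.18 (SE)), Ptger4, a prostaglandin E2 receptor (231 to 431 CPM, 0.90 ± 0.17 (SE)) and Cda, cytidine deaminase (1965 to 3046 CPM, 0.63 ± 0.15 (SE)). The keratin Krt8 (3555 to 5121 CPM, 0.53 ± 0.14 (SE)) and the brush border scaffold Slc9a3r1 (2787 to 4161 CPM, 0.58 ± 0.16 (SE)) also rose without overlap. The proteasome subunits Psmc4 and Psmd8 rose by 0.41 and 0.44, and the lysosomal genes Lipa and Lamp1 by 1.11 and 0.46. With the acinar covariate Krt8 (0.53, adjusted p = 0.0508), Cda (0.36, 0.224) and Lipa (0.73, 0.126) were not called. Krt8 and Cda also lost their calls without the samples over 50% acinar counts and with library totals. Ptger4 kept its call in each of these fits.

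Genes that fell outside the lists included Cav1, caveolin 1 (136 to 67.1 CPM, -1.02 ± 0.28 (SE)), Scg2, a secretogranin of endocrine and nerve cells (91.5 to 38.6 CPM, -1.24 ± 0.38 (SE)), Ckm, the muscle creatine kinase (78.7 to 32.5 CPM, -1.28 ± 0.41 (SE)), and Trp53inp2 (251 to 149.8 CPM, -0.75 ± 0.21 (SE)). Hgf and Notch1 are on the growth factor and Wnt list. Hgf, hepatocyte growth factor, lay higher in every captan sample than in every control but was not called (2.67 ± 1.27 (SE), adjusted p = 0.218). Notch1 lay lower in every captan sample and was not called either (-0.55 ± 0.19 (SE), adjusted p = 0.0751).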
